A study of Homo sapiens with 4 samples.

Results

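The 8 genes described here encode enzymes that make or interconvert non-essential amino acids: ASNS for asparagine, CBS and CTH for transsulphuration, ALDH18A1 and PYCR1 for proline, GPT2 and GOT1 as transaminases, and GLUL for glutamine. They were picked by gene name from the 24940 genes of an RNA-seq count table, and each name matched 1 row. The choice was made by function but with earlier results of these data known, so it was not blind to the values. The table covers 4 libraries, 1 per group, of MOLM-13, an established human acute myeloid leukaemia line that carries a KMT2A fusion. The groups were cells with hairpins against both c-Myc and Bcl-2 (sh-c-Myc_sh-Bcl2, here the double knockdown), against c-Myc (sh-c-Myc), against Bcl-2 (sh-Bcl2) and with a negative control hairpin (shControl). Doxycycline, which induces the hairpins, is listed for all 4 groups, shControl included, as the 72 h before a Western blot check. The sample details used here list no doxycycline time for the RNA libraries. Hairpins were delivered by lentivirus with selection in puromycin or G418. The sources used here do not give the hairpin sequences or say whether cells were clones or pools. The libraries held 15494138 counts in the double knockdown, 14421558 in sh-c-Myc, 15691129 in sh-Bcl2 and 14825763 in shControl. With 1 library per group no difference between 2 libraries has a replicate check, and each bracket below is a 95% interval for counting error only. Fewer cells of a kind and less RNA per cell cannot be told apart in such bulk samples.

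Asparagine synthetase transfers an amide group from glutamine to aspartate. Transsulphuration moves sulphur from homocysteine to cysteine, first through cystathionine beta-synthase (CBS) and then through cystathionine gamma-lyase (CTH), and so feeds glutathione synthesis. Proline is built from glutamate in mitochondria by pyrroline-5-carboxylate synthase (ALDH18A1) and pyrroline-5-carboxylate reductase (PYCR1). Many of these genes are known targets of ATF4, the transcription factor of the amino acid and integrated stress response, and asparagine supply matters in leukaemia because asparaginase is used as a drug.

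The targeted RNAs were measured first. BCL2, the anti-apoptotic gene, stood at 44.5 CPM in the double knockdown, 112 in sh-c-Myc, 38.7 in sh-Bcl2 and 119.7 in shControl. The Bcl-2 hairpin lowered BCL2 by 1.48 on the log2 scale in the 2 by 2 fit described below (edgeR adjusted p = 0.00600). MYC stood at 301.6 CPM in the double knockdown, 278.2 in sh-c-Myc, 364.3 in sh-Bcl2 and 433.7 in shControl, so its RNA was less than 2-fold lower in each knockdown library, and its change with the c-Myc hairpin did not pass (log2 -0.46, edgeR adjusted p = 0.0795). CPM are counts per 1000000, with library sizes scaled by TMM factors. Of 6 markers of the leukaemia line 5 had counts in every library and ANPEP had at most 2. Summed, the 6 were at 1390.0 CPM in the double knockdown, 1463 in sh-c-Myc and 804.9 in sh-Bcl2, against 689.6 in shControl. Among them MPO, the myeloperoxidase gene, was called 5.03-fold higher in the double knockdown [4.79 to 5.29] and 4.97-fold higher in sh-c-Myc [4.73 to 5.23] than in shControl, and the other 4 with counts in every library were not called. Of the 4 T cell markers 0 are listed among the genes. Summed B cell, erythroid and megakaryocyte markers reached at most 5.26, 0.577 and 1.60 CPM in a library. Summed monocyte markers (8 genes, all with counts in each library) were at 938.7, 885.2 and 364.7 CPM in the double knockdown, sh-c-Myc and sh-Bcl2, against 244.6 in shControl. Of these 8, 6 were called higher in the double knockdown, 6 in sh-c-Myc and 3 in sh-Bcl2, each over shControl, by the rule given below. The shares of all genes called higher were 7.10%, 12.5% and 2.45% in that order. The part of either marker list in the results was not tested.

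Across the libraries the 8 genes split into 4 patterns. ASNS, CBS, CTH and GPT2 were at their lowest in the double knockdown, with both single knockdown libraries between it and shControl. ALDH18A1 was lower than shControl in the double knockdown and sh-c-Myc and close to it in sh-Bcl2. PYCR1 was lower with each hairpin, and about as low with both hairpins as with the c-Myc hairpin alone. GOT1 and GLUL were less than 1.5-fold apart in every comparison.

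Calls required a difference of 2-fold or more between 2 libraries and an interval clear of equality. They were made over the 13646 genes that reached 1 CPM in 1 or more libraries. All 8 genes did, ASNS through libraries other than the double knockdown. In the double knockdown over shControl, 5 of the 8 were called lower (ASNS, CBS, CTH, PYCR1, GPT2) and 0 higher, where 5.99% of the 13646 genes were called lower and 7.10% higher. In sh-c-Myc over shControl, 3 were called lower (PYCR1, ALDH18A1, GPT2) and 0 higher, against 9.86% and 12.5% of all. In sh-Bcl2 over shControl, 2 were called lower (ASNS, CTH) and 0 higher, against 2.16% and 2.45%. Median log2 ratios of the 8 were -1.68, -0.72 and -0.68 in that order, against -0.01, -0.02 and -0.00 over all genes tested. The 3 comparisons share the shControl library. With total counts in place of TMM factors the share of all calls that were higher was 70.5% against 55.9% in sh-c-Myc over shControl, and the CTH call in sh-Bcl2 was lost. Among genes averaging 50 counts or more, the median in that sh-c-Myc comparison was 0.08 on the log2 scale with total counts and -0.10 with TMM factors.

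**Figure D1:**
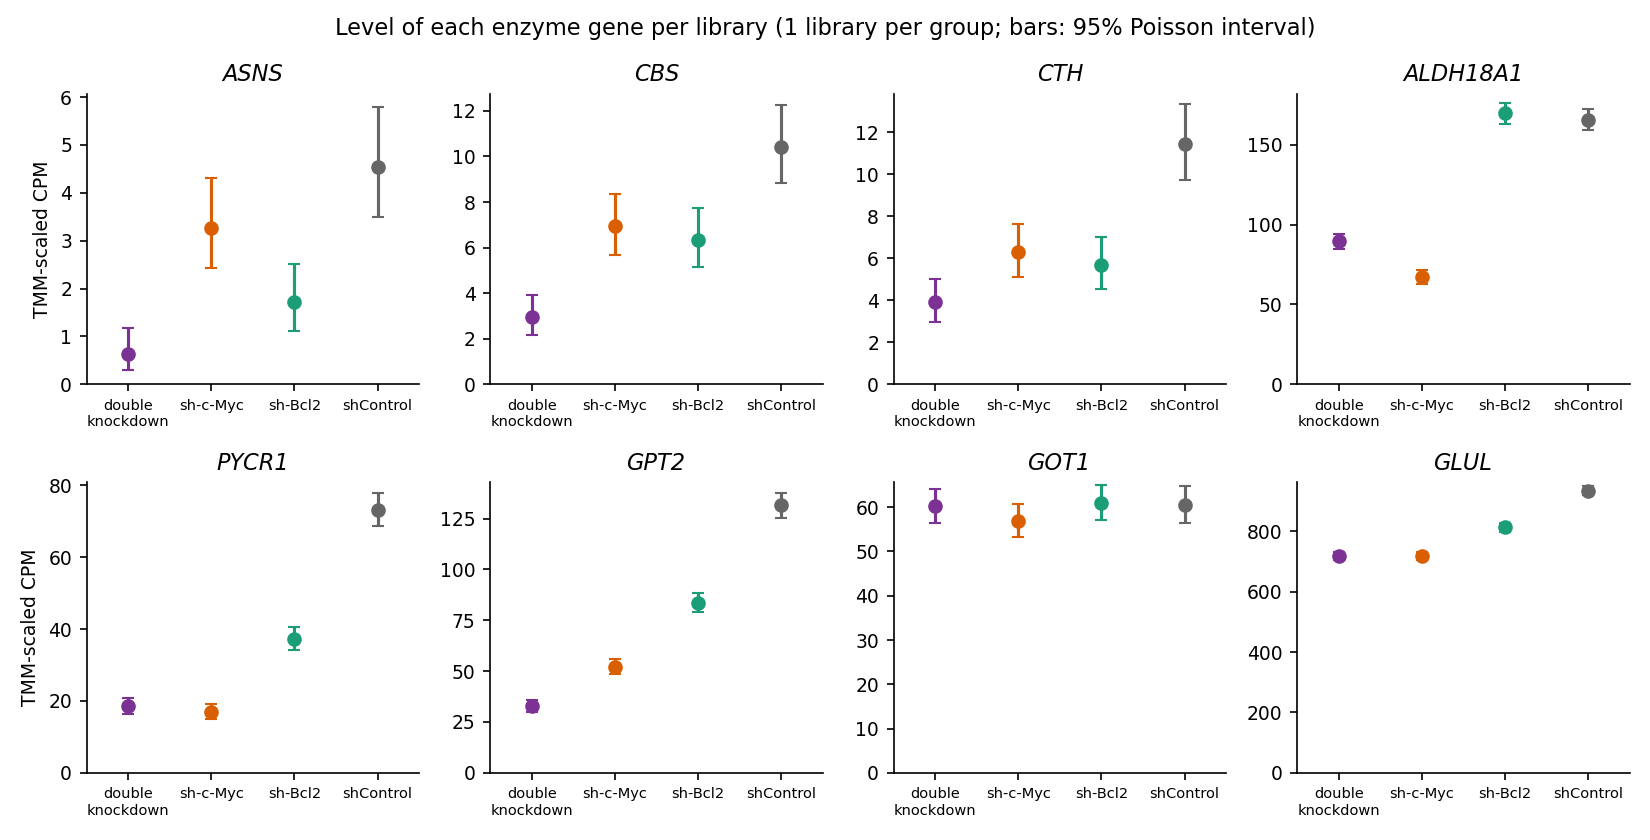
Level of the 8 genes in TMM-scaled CPM (y axis, linear from 0) in each library (x axis), with 95% Poisson intervals as bars. ASNS lies between 0.640 CPM in the double knockdown and 4.54 in shControl, and GOT1 between 56.9 and 61.0 in all 4 libraries.

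Promoter sequences are shown for the 3 genes whose window holds one of a pair of motifs. RefSeq windows (GRCh38.p14, 250 bases before to 50 after a start) were available for 6 of the 8 genes, as 10 windows; the others are PYCR1 and GPT2. The motifs searched on both strands were TGATGNAA, the core of the element that ATF4 binds with C/EBP partners, and CACGTG, the E-box that MYC binds with MAX. Neither overlaps the other in these windows. Of 35116 windows in the table, 3.62% hold TGATGNAA and 7.26% hold CACGTG. Capitals mark the match, and each sequence runs 5′ to 3′ along its gene.
ASNS chr7:97872359-97872658, minus strand: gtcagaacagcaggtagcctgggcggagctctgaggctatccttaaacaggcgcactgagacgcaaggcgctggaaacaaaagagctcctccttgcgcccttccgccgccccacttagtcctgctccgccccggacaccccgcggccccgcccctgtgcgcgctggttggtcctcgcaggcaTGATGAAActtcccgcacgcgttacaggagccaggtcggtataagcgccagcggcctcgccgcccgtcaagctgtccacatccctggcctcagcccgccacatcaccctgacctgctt
ALDH18A1 chr10:95656662-95656961, minus strand: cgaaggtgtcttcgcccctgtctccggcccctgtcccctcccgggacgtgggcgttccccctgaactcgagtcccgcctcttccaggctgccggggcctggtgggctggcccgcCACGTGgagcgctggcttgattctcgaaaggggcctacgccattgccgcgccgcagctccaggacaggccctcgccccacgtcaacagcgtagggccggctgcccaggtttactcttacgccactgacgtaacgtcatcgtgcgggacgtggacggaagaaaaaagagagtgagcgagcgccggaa
GOT1 chr10:99430575-99430874, minus strand: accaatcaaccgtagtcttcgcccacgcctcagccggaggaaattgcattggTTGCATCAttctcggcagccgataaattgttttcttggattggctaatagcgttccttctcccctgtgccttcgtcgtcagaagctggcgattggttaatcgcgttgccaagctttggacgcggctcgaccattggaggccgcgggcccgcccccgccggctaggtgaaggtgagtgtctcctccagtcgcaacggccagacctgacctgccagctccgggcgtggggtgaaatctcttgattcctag
In ASNS the motif reads TGATGAAA from base -68 to -61, counted from a first transcribed base of +1, and its other window held none. In ALDH18A1 the palindrome CACGTG lies at -136 to -131. GOT1, which hardly differed between libraries, has TGATGNAA on the opposite strand at -198 to -191, printed here as TTGCATCA. The windows of CBS (3), CTH (1) and GLUL (2) held neither motif. A match is a description of these letters and not evidence of binding.

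ASNS (ENSG00000070669, chromosome 7, 97852118 to 97872542 on GRCh38, minus strand) was the lowest of the 8 per length, with 0.145 FPKM in the double knockdown, 0.794 in sh-c-Myc, 0.372 in sh-Bcl2 and 0.969 in shControl. These values rest on 10, 51, 26 and 64 counts. The double knockdown library was the lowest and its interval in CPM [0.307 to 1.18] did not overlap that of sh-c-Myc [2.44 to 4.30] or shControl [3.5 to 5.80]. ASNS was 6.82-fold lower in the double knockdown than in shControl [3.62 to 15.5], 2.62-fold lower in sh-Bcl2 than in shControl [1.65 to 4.35], and 1.39-fold lower in sh-c-Myc than in shControl with an interval that spans 1 [0.946 to 2.05]. Of the 13646 genes, 0.286% had a log2 ratio as low or lower in the double knockdown over shControl. The annotated gene shares 44.6% of its 4455 exonic bases with AC079781.5, a gene annotated as a processed transcript on the same strand, and 79.4% of the 100-base windows of its longest coding transcript also occur there. AC079781.5 had 34, 39, 20 and 24 counts in the same library order. How reads in shared bases were counted is not stated, so the level of ASNS relative to other genes is uncertain. Its ratios between libraries rest only on the reads that were assigned to ASNS.

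CBS (ENSG00000160200, chromosome 21, 43053191 to 43076943) catalyses the first step of transsulphuration and showed 46 counts in the double knockdown, 108 in sh-c-Myc, 96 in sh-Bcl2 and 147 in shControl, or 2.94, 6.93, 6.34 and 10.4 CPM. The single knockdown libraries lay close together and between the other libraries. CBS was 3.52-fold lower in the double knockdown than in shControl [2.53 to 5.05], and 1.50-fold [1.17 to 1.95] and 1.64-fold [1.26 to 2.15] lower in sh-c-Myc and sh-Bcl2 than in shControl. A near-identical copy, CBSL, holds 92.4% of the 100-base windows of the longest coding CBS transcript and had 1 count in sh-Bcl2 and 0 in the other libraries, so the level of CBS is uncertain. Its ratios rest only on the reads that were assigned to CBS.

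CTH (ENSG00000116761, chromosome 1, 70411218 to 70439851) releases cysteine in the second step. Its libraries held 3.90 CPM in the double knockdown, 6.29 in sh-c-Myc, 5.68 in sh-Bcl2 and 11.4 in shControl, from 61, 98, 86 and 161 counts. The order is the one seen for CBS and the intervals of both single knockdown libraries lay below that of shControl. CTH was 2.91-fold lower in the double knockdown than in shControl [2.17 to 4.0], 1.81-fold lower in sh-c-Myc [1.41 to 2.36] and 2.01-fold lower in sh-Bcl2 [1.54 to 2.64], the last at the edge of the 2-fold rule. No exonic base of CTH is shared with another gene.

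ALDH18A1 (ENSG00000059573, chromosome 10, 95605929 to 95656706), which converts glutamate to the precursor of proline and ornithine, was present at 89.6 CPM in the double knockdown, 67.1 in sh-c-Myc, 170 in sh-Bcl2 and 166 in shControl. The libraries with the c-Myc hairpin were the low ones, and sh-Bcl2 overlapped shControl. The gene was 2.47-fold lower in sh-c-Myc than in shControl [2.30 to 2.66] and 1.85-fold lower in the double knockdown than in shControl [1.73 to 1.98], under the 2-fold rule. Its log2 ratio in sh-Bcl2 over shControl was 0.03 [-0.05 to 0.12].

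PYCR1 (ENSG00000183010, chromosome 17, 81932384 to 81942412), which makes proline in the last step, had 18.6 CPM in the double knockdown, 16.9 in sh-c-Myc, 37.3 in sh-Bcl2 and 73.2 in shControl. Of the 8 it had the lowest ratio in sh-c-Myc, where it was 4.32-fold lower than in shControl [3.77 to 4.97]. The double knockdown was 3.94-fold lower than shControl [3.46 to 4.51], and sh-Bcl2 1.96-fold lower [1.77 to 2.18]. Intervals of the double knockdown [16.5 to 20.8] and sh-c-Myc [15.0 to 19.1] overlapped. PYCR1 shares 29.7% of its exonic bases with AC145207.4 on the opposite strand and MYADML2 on its own, the second of which had at most 3 counts in a library. Log2 ratios in sh-Bcl2 over shControl were lower in genes of higher transcript GC content (Spearman rho -0.29 across 13384 genes, as a description), and PYCR1 has the highest GC content of the 8, 61.8%. With that trend and the trend on length removed its log2 ratio in sh-Bcl2 was -0.74, against -0.97.

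GPT2 (ENSG00000166123, chromosome 16, 46884378 to 46931297), the mitochondrial alanine transaminase, was at 32.8 CPM in the double knockdown, 52.0 in sh-c-Myc, 83.6 in sh-Bcl2 and 131.5 in shControl, from 513, 811, 1265 and 1852 counts. No 2 of the 4 intervals overlapped. GPT2 was 4.0-fold lower in the double knockdown than in shControl [3.63 to 4.43], 2.53-fold lower in sh-c-Myc [2.33 to 2.75] and 1.57-fold lower in sh-Bcl2 [1.46 to 1.69].

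GOT1 (ENSG00000120053, chromosome 10, 99396870 to 99431569), the cytosolic aspartate transaminase, had 60.3 CPM in the double knockdown, 56.9 in sh-c-Myc, 61.0 in sh-Bcl2 and 60.5 in shControl, and all 4 intervals overlapped. Its log2 ratios to shControl were -0.01 [-0.14 to 0.13] in the double knockdown, -0.09 [-0.23 to 0.05] in sh-c-Myc and 0.01 [-0.12 to 0.15] in sh-Bcl2. It shares 19.3% of its exonic bases with AL391684.1, a noncoding gene on the opposite strand that had 63, 137, 39 and 26 counts where GOT1 had 942, 887, 924 and 853.

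GLUL (ENSG00000135821, chromosome 1, 182381704 to 182392206), glutamine synthetase, was the most abundant of the 8 per length in every library, at 80.3 FPKM in the double knockdown, 86.1 in sh-c-Myc, 86.8 in sh-Bcl2 and 98.4 in shControl. The 3 knockdown libraries were below shControl by 1.30-fold [1.27 to 1.33] in the double knockdown, 1.30-fold [1.27 to 1.33] in sh-c-Myc and 1.15-fold [1.12 to 1.18] in sh-Bcl2. Per length, the order in shControl was GLUL, ALDH18A1 (41.8 FPKM), PYCR1 (24.1), GPT2 (19.7), GOT1 (17.1), CTH (4.50), CBS (1.46) and ASNS. In the double knockdown GOT1 (18.1 FPKM) stood above PYCR1 (6.49) and GPT2 (5.21), and the order of the others was as in shControl. The places of CBS and ASNS are uncertain because of the sequence they share with other genes.

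**Figure D2:**
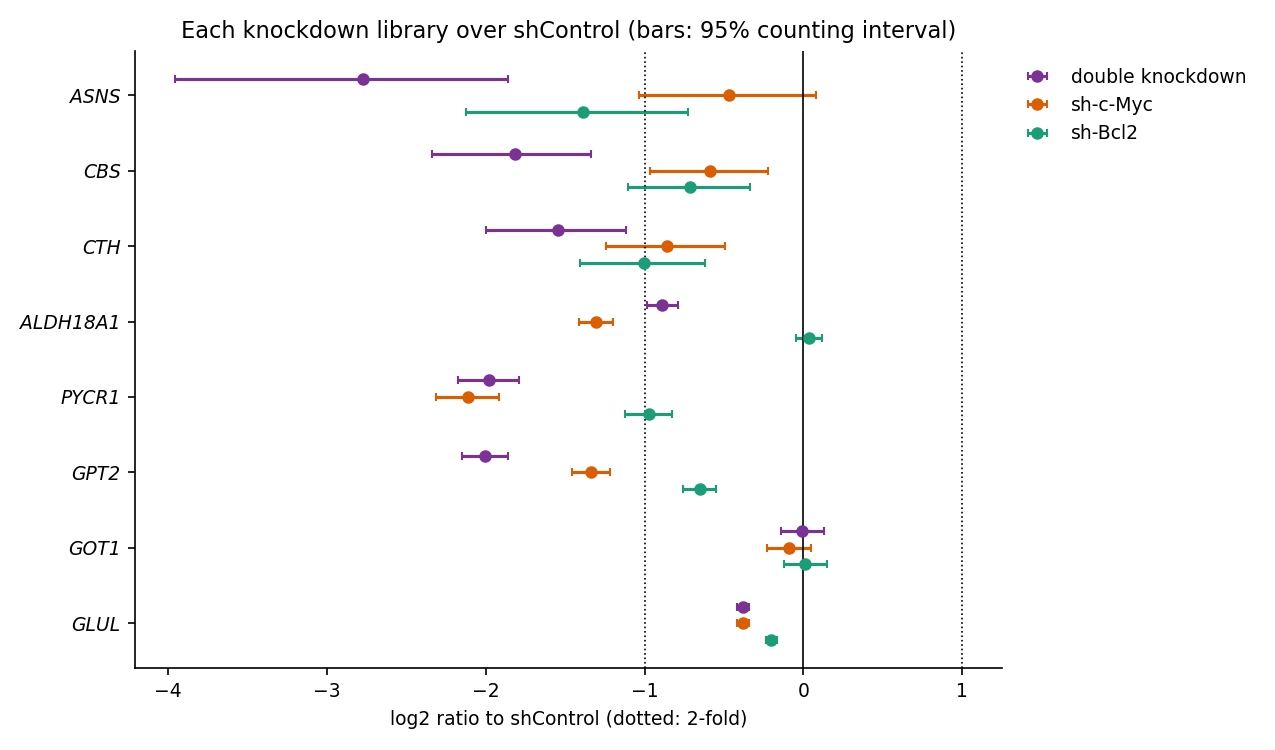
Log2 ratio to shControl (x axis) of each gene (rows) in the double knockdown, sh-c-Myc and sh-Bcl2, with 95% counting intervals as bars and 2-fold marked by dotted lines. ASNS, CBS, CTH and GPT2 are lowest in the double knockdown, ALDH18A1 and PYCR1 in sh-c-Myc, and GOT1 lies near 0.

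Adding one hairpin to the other separated the genes further. In the double knockdown over sh-c-Myc, ASNS was 4.92-fold lower [2.57 to 11.3] and CBS 2.34-fold lower [1.65 to 3.40]. These were 2 of 8 called lower and 0 higher, where 4.70% of all genes were called lower and 1.66% higher. CTH (log2 -0.68) and GPT2 (-0.66) were lower by less than 2-fold, PYCR1 (0.13) and GLUL (-0.00) had intervals that span 0, and ALDH18A1 was 1.34-fold higher [1.23 to 1.45]. In the double knockdown over sh-Bcl2, 4 of 8 were called lower and 0 higher, against 3.63% and 5.21% of all genes. They were ASNS (2.61-fold [1.25 to 6.24]), CBS (2.14-fold [1.50 to 3.13]), PYCR1 (2.01-fold [1.74 to 2.32]) and GPT2 (2.54-fold [2.30 to 2.83]). ALDH18A1 stood at log2 -0.92 [-1.02 to -0.83] in that comparison.

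The departure from additivity is the double knockdown's log2 ratio to shControl less the sum of both single knockdown ratios. It was 1.10 [0.82 to 1.39] for PYCR1, whose sum of single ratios (-3.08) was lower than its ratio in the double knockdown (-1.98). PYCR1 was the only one of the 8 past 1 log2 unit with an interval that excludes 0. Of all genes 8.77% were, in either direction, so 1 of 8 is near the background and no result about the 8. With total counts or upper quartile factors PYCR1's value was 0.98 or 0.97, below 1 log2 unit. ALDH18A1 (0.38 [0.24 to 0.52]) and GLUL (0.20 [0.15 to 0.25]) had smaller departures of the same sign. GPT2 (-0.01 [-0.20 to 0.18]) and GOT1 (0.07 [-0.12 to 0.26]) lay at additivity within counting error. The intervals of ASNS (-0.91 [-2.07 to 0.25]), CBS (-0.51 [-1.13 to 0.11]) and CTH (0.32 [-0.27 to 0.92]) span 0, so a departure of the size seen for PYCR1 could not be resolved for ASNS at its depth.

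**Figure D3:**
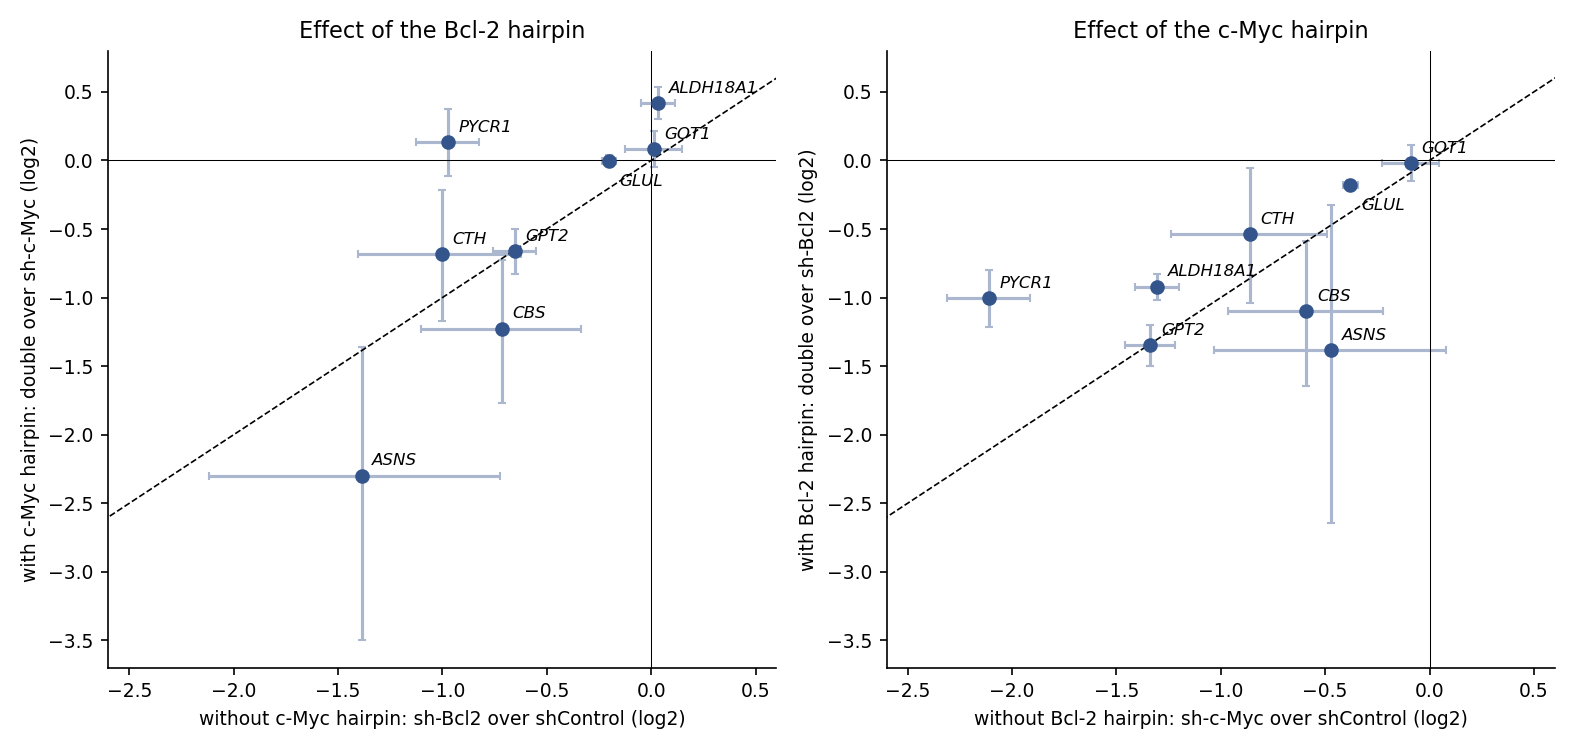
Log2 effect of the Bcl-2 hairpin (left) and of the c-Myc hairpin (right) on each gene, with the other hairpin present (y axis) and absent (x axis), with 95% counting intervals. On the dashed line the effects are equal; PYCR1 lies off it, at 0.13 against -0.97 for the Bcl-2 hairpin, and GPT2 lies on it.

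The 4 libraries also form a 2 by 2 layout, in which edgeR's quasi-likelihood test compared the libraries with and without each hairpin across 12855 genes. For the c-Myc hairpin, 3 of the 8 genes fell and 0 rose at a Benjamini-Hochberg adjusted p under 0.05, where 14.2% of all genes tested fell and 9.24% rose. GPT2 fell by 1.34 on the log2 scale (SE 0.161, edgeR adjusted p = 0.000525), PYCR1 by 1.56 (SE 0.243, adjusted p = 0.00147) and ALDH18A1 by 1.11 (SE 0.163, adjusted p = 0.00111). CBS (-0.83, SE 0.310, adjusted p = 0.0734), CTH (-0.71, SE 0.30, adjusted p = 0.107) and ASNS (-0.83, SE 0.459, adjusted p = 0.210) did not pass. For the Bcl-2 hairpin 0 of 8 passed in either direction, as 0.0156% of all genes fell and 0.0156% rose. At an unadjusted p under 0.05 the Bcl-2 hairpin had 4 of the 8 in edgeR, 4 in DESeq2 and 5 in limma-voom, with 0 adjusted in each. The shares of all genes were 7.51%, 3.17% and 7.64% in that order. Those in edgeR were ASNS (log2 -1.81, SE 0.465, adjusted p = 0.550), GPT2 (-0.66, SE 0.159, adjusted p = 0.467), CBS (-0.96, SE 0.310, adjusted p = 0.573) and CTH (-0.85, SE 0.301, adjusted p = 0.602). For the c-Myc hairpin edgeR had 5 of the 8 at an unadjusted p under 0.05, against 37.1% of all genes. With 1 residual degree of freedom, non-additive effects and variation among libraries cannot be told apart in this fit.

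The other enzymes of these pathways were followed with lists chosen by function, again with earlier results of these data known. Of the genes listed beside the 8, those that met the CPM filter are counted here, and each count is to be read against the share of all genes called. Beside ASNS, 0 of 4 other asparagine genes were called in the double knockdown. Of all genes 5.99% were called lower there and 7.10% higher, so that 0 is no result about the list. In sh-c-Myc 2 of the 4 were called lower, against 9.86% of all genes: the asparaginase ASRGL1 (log2 -1.20) and the mitochondrial asparaginyl-tRNA synthetase NARS2 (-1.14). Of 7 other proline and ornithine genes, 1 was called lower in the double knockdown, against 5.99% of all genes, which is near the background. In sh-c-Myc 2 of the 7 were called lower, against 9.86%. In sh-Bcl2 0 genes of either list were called, where 2.16% of all genes were lower and 2.45% higher. That 0 is no result about the lists. The ornithine aminotransferase OAT was lower in the double knockdown (log2 -2.50; 11 counts against 58 in shControl) and in sh-c-Myc (-3.11; 7 counts), and the reductase PYCR3 was lower in sh-c-Myc (-1.36). In the edgeR fit 2 of the 4 asparagine genes (NARS2, ASNSD1) fell with the c-Myc hairpin, where 14.2% of all genes fell. So did OAT (edgeR adjusted p = 0.00976) and PYCR3 (edgeR adjusted p = 0.00897). OAT met the CPM filters only through sh-Bcl2 and shControl (2.25 and 4.12 CPM), the libraries where it was high. Its calls and its fall in the fit are therefore a description and no independent support. For the Bcl-2 hairpin 0 genes of either list passed, where 0.0156% of all genes fell and 0.0156% rose. At so low a share, a count of 0 is no result about a list. OAT feeds the same intermediate as ALDH18A1 from ornithine. The median log2 ratios of those 7 were -0.18 in the double knockdown, -0.56 in sh-c-Myc and -0.03 in sh-Bcl2.

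Of 13 other genes of the methionine cycle, transsulphuration and glutathione, 1 was called lower in the double knockdown, 2 in sh-c-Myc and 1 in sh-Bcl2, each over shControl, and 0 higher. The shares of all genes called lower were 5.99%, 9.86% and 2.16%, so counts of 1 or 2 in 13 are near the background and are no result about the list. CHAC1, which degrades glutathione, was at 1.98 CPM in the double knockdown, 15.1 in sh-c-Myc, 6.74 in sh-Bcl2 and 14.3 in shControl. Its relative CHAC2 (log2 -1.73) and AHCY (-1.09), which hydrolyses S-adenosylhomocysteine to give the homocysteine that CBS uses, were lower in sh-c-Myc. In the edgeR fit 3 fell with the c-Myc hairpin (GCLM, AHCY, CHAC2) and 1 rose (TST), where 14.2% of all genes fell and 9.24% rose. Again 0 passed for the Bcl-2 hairpin, where 0.0156% of all genes fell and 0.0156% rose. The list's median log2 ratio was -0.04, -0.10 and -0.17 in the double knockdown, sh-c-Myc and sh-Bcl2.

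Of 13 other glutamate and transaminase genes, 4 were called lower in the double knockdown and 0 higher, 5 lower and 2 higher in sh-c-Myc, and 0 in sh-Bcl2. Over all genes 5.99% were lower and 7.10% higher in the double knockdown, and 9.86% lower and 12.5% higher in sh-c-Myc. In sh-Bcl2, 2.16% were lower and 2.45% higher. The 2 higher in sh-c-Myc and the 0 in sh-Bcl2 are near the background. PSAT1, the transaminase of serine synthesis, had 91.7 CPM in the double knockdown, 119.9 in sh-c-Myc, 237.8 in sh-Bcl2 and 351.5 in shControl. The branched-chain transaminase BCAT1 was lower in the double knockdown (log2 -1.32) and in sh-c-Myc (-1.60), as was BCAT2 (-1.01 and -1.65). KYAT1 was lower in the double knockdown (-1.25), and glutamate dehydrogenase GLUD1 (-1.07) and ALDH5A1 (-1.07) in sh-c-Myc. GPT, the cytosolic counterpart of GPT2, was higher in sh-c-Myc (log2 1.46; 86 counts against 28 in shControl), as was the GABA transaminase ABAT (1.56). In the edgeR fit 7 of these 13 fell with the c-Myc hairpin and 1 rose (ABAT, log2 1.09, edgeR adjusted p = 0.0235), against 14.2% and 9.24% of all genes. None of the 13 passed for the Bcl-2 hairpin, where 0.0156% of all genes fell and 0.0156% rose.

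Of 13 regulators of the integrated stress response, 4 were called lower in the double knockdown over shControl, 0 in sh-c-Myc, 1 in sh-Bcl2 and 0 higher. Of all genes 5.99%, 9.86% and 2.16% were called lower, and 7.10%, 12.5% and 2.45% higher, in that order. The 0 in sh-c-Myc, the 1 in sh-Bcl2 and the 0 higher are near the background and no result about the list. ATF4 itself stood at 250.1 CPM in the double knockdown, 313.8 in sh-c-Myc, 318.9 in sh-Bcl2 and 580.7 in shControl. Its log2 ratios to shControl were -1.22, -0.89 and -0.86 in the knockdown libraries in that order. ASNS, CBS, CTH and GPT2 were also lowest in the double knockdown, but PYCR1 (-2.11) and ALDH18A1 (-1.305) were lowest in sh-c-Myc. GOT1 hardly differed between libraries, and GLUL was at -0.38 in both the double knockdown and sh-c-Myc. ASNS was at -0.47 in sh-c-Myc and -1.39 in sh-Bcl2, where ATF4 was nearly equal. Whether ATF4 had a part in the levels of these genes was not tested. ATF3 (-1.09), the pseudokinase TRIB3 (-1.36) and SESN2 (-1.13) were lower in the double knockdown, and DDIT3, which shares 39.6% of its exonic bases with other genes, in sh-Bcl2 (-1.31). In the edgeR fit 2 of the 13 fell with the c-Myc hairpin, which is near the 14.2% of all genes that fell. They were ATF4 (log2 -0.62, edgeR adjusted p = 0.0320) and TRIB3 (log2 -0.76, edgeR adjusted p = 0.00982). For the Bcl-2 hairpin 0 passed, where 0.0156% of all genes fell and 0.0156% rose, so that count is no result about the list. ATF4 activity is set largely at translation, which RNA counts do not measure.

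**Figure D4:**
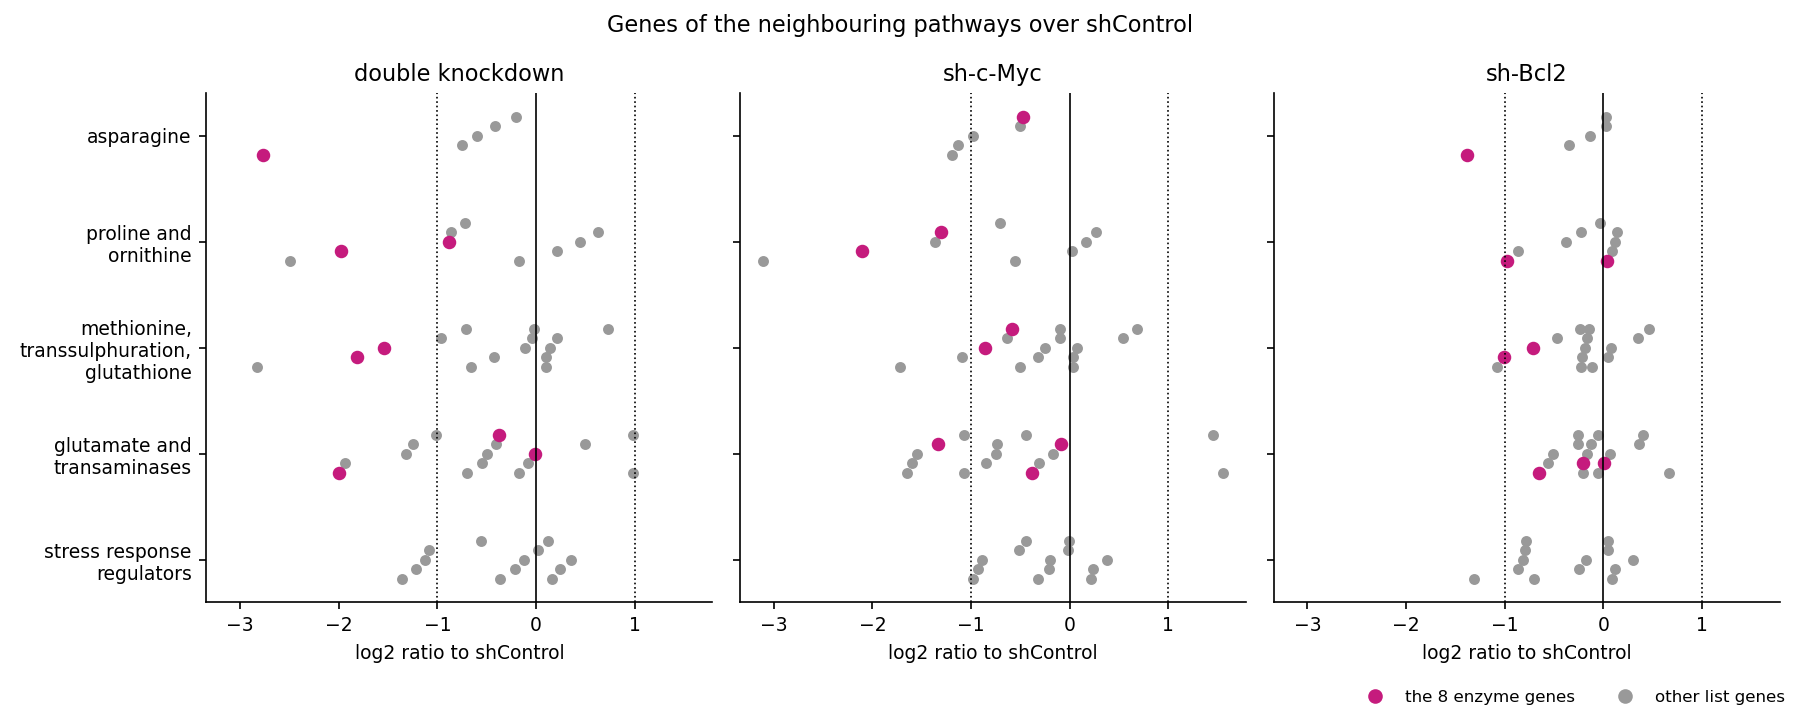
Log2 ratio to shControl (x axis) of the genes of 5 functional lists (rows) that met the CPM filter, in the double knockdown, sh-c-Myc and sh-Bcl2, with the 8 enzyme genes coloured and 2-fold dotted. The vertical scatter within a row carries no value; ASNS (-2.77) stands below the other asparagine genes in the double knockdown.

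For likeness of pattern, the 3 log2 ratios to shControl of each enzyme gene were set beside those of 9063 genes that averaged 10 CPM or more, with the root mean square difference as measure. Nearest to ASNS were SLC7A5, an amino acid transporter gene (0.50; log2 -2.89 in the double knockdown, -1.25 in sh-c-Myc, -1.76 in sh-Bcl2), RAC3 and FOXD1. Nearest to GPT2 were PHGDH (0.12), PSAT1 (0.14) and COL27A1 (0.16), the first pair of which are serine synthesis enzymes. TRIB3, NSMF and S100P were nearest to CTH, and TNKS1BP1, HOXC4 and FOXD1 to CBS. SOX12, CCDC124 and HMGA1 were nearest to PYCR1, and CLUH, CENPV and CHAF1A to ALDH18A1. POLR1D, BST2 and HMX3 were nearest to GLUL, and ZNF260, SMAD4 and SPART to GOT1. With 3 values per gene and 1 shared control library, a small difference is no sign of a link, and the gene nearest to GOT1 differed by 0.00493.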

How the data were processed

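The authors deposited 1 table with read counts and FPKM for each gene of the 4 libraries. Per the submitters' processing notes, reads were aligned to GRCh38 with HISAT2 and counted with HTSeq 0.13.5; the sources used here do not give the annotation, the strand setting or the handling of multi-mapped reads. The deposited FPKM values are scaled to gene length and library total, and dividing counts by them gave whole gene lengths (within 0.01 base) for 100% of 81017 values. All 24940 identifiers are in GENCODE 29 (GRCh38), which gave positions, overlaps and GC content. Per the labels, selection used 0.5 µg/ml puromycin or 600 µg/ml G418, knockdown was checked by Western blot after 72 h of doxycycline, and 1.5 µg of RNA entered each library.

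Log2 ratios of TMM-scaled counts (prior 0.5) carry exact conditional binomial 95% intervals, levels exact Poisson intervals, and departures from additivity delta-method intervals, all for counting error only. TMM factors were 1.01 in the double knockdown, 1.08 in sh-c-Myc, 0.965 in sh-Bcl2 and 0.950 in shControl. The 2 by 2 fit used edgeR 4.0.16 (quasi-likelihood, 1 term per hairpin, Benjamini-Hochberg over 12855 genes with at least 1 CPM in 2 libraries; common dispersion 0.0221), with DESeq2 1.42.0 and limma 3.58.1 as alternatives, in R 4.3.3. Methods were tested on simulated data. The 8 genes, the lists and the tests were chosen with earlier results of these data known. Genes named are the 8, MYC and BCL2, pathway list members called in a comparison with shControl, and the 3 nearest in pattern to each of the 8. Outside that rule, and after their values were seen, the text names ASNSD1, GCLM and TST (called in the 2 by 2 fit only), the markers ANPEP and MPO, and AC079781.5, CBSL, AC145207.4, MYADML2 and AL391684.1, which overlap or copy one of the 8. Motifs were searched in RefSeq promoters of GRCh38.p14. A result for 1 list gene is not reported here.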

Additional observations from a re-analysis of the deposited data

How the results depend on the processing

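With 1 library per group and intervals for counting error only, calls near 2-fold are the least settled, and ASNS, on 10 to 64 counts, is the gene that depth limits most. With median-of-ratios size factors, the GC and length trend removed, no filter or protein-coding genes only, the calls of the 8 genes were those reported. The CTH call in sh-Bcl2 over shControl was lost with total counts and with upper quartile factors, leaving 1 gene, and so was the PYCR1 call in the double knockdown over sh-Bcl2. PYCR1's departure was below 1 log2 unit under both, leaving 0 genes. A mean of at least 50 counts takes ASNS out of the genes tested, leaving 1 gene lower in sh-Bcl2 over shControl and 1 in the double knockdown over sh-c-Myc. At 1.5-fold, 5 of the 8 were lower in sh-c-Myc and in sh-Bcl2 over shControl, and 4 in the double knockdown over sh-c-Myc. Of the 13646 genes tested, 2802, 767 and 1237 were lower at 1.5-fold in these comparisons, in that order. On log2(FPKM + 1) of the deposited values, 20 of the 40 ratios of the 8 genes and 1 of their 8 departures lay outside the counting interval. The pseudocount understates low genes: in the double knockdown over shControl ASNS was at -0.78, against -2.77, and CBS at -0.78, against -1.82. PYCR1's departure was 0.93 on that scale, against 1.10.

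Counts over all genes moved as follows. At 1.5-fold, lower and higher calls were 2030 and 1826 in the double knockdown, 2802 and 2700 in sh-c-Myc and 767 and 622 in sh-Bcl2, each over shControl, then 1237 and 813 in the double knockdown over sh-c-Myc and 1444 and 1457 over sh-Bcl2. With a mean of at least 50 counts they were 521 and 475 in the double knockdown, 1105 and 767 in sh-c-Myc, 77 and 86 in sh-Bcl2, 105 and 108 over sh-c-Myc and 270 and 291 over sh-Bcl2. Among protein-coding genes they were 658 and 639 in the double knockdown, 1210 and 1016 in sh-c-Myc and 198 and 177 in sh-Bcl2 over shControl, 299 and 177 over sh-c-Myc and 387 and 473 over sh-Bcl2. In sh-c-Myc over shControl the higher share of calls was thus 41.0% in genes averaging 50 counts or more and 45.6% among protein-coding genes, against 55.9%, so the balance turned. With no filter 1003 were lower in the double knockdown over sh-c-Myc. The higher share of calls in the double knockdown over shControl was 63.8% with total counts and 64.2% with upper quartile factors, against 54.3%.

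In the 2 by 2 fit the c-Myc hairpin had 3 of the 8 lower under each alternative except no filter, where CBS passed too (adjusted p = 0.0335), and 2285 of all genes were higher with total counts. GOT1's log2 change with the c-Myc hairpin was 0.0711 with total counts, against -0.05, and neither passed (edgeR adjusted p = 0.786 and 0.835). For the Bcl-2 hairpin all genes lower numbered 10 with DESeq2, 72 with total counts and 36 with no filter, and all genes higher 1 with limma-voom, 48 with total counts, 1 with median-of-ratios size factors and 22 with no filter, against 2 each. Of the 8, 2 (ASNS, adjusted p = 0.0469, and GPT2, adjusted p = 0.00849) were lower with total counts and 1 (ASNS, adjusted p = 0.0173) with no filter in edgeR. The cause was not tested. No paired analysis was possible because each group holds 1 library, and leaving out a library leaves the fit no residual degree of freedom.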

Other observations

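CHAC1 behaved unlike the other glutathione genes. It was 7.50-fold lower in the double knockdown than in sh-c-Myc [5.21 to 11.4], while sh-c-Myc over shControl gave a log2 ratio of 0.08 [-0.20 to 0.36], and its departure from additivity was -1.83 [-2.46 to -1.19]. DDIT3, which encodes the stress transcription factor CHOP, departed the other way, by 1.08 [0.41 to 1.75]. The noncoding gene AL391684.1, which starts beside GOT1 on the other strand, was 4.69-fold higher in sh-c-Myc than in shControl [3.11 to 7.55] and 2.16-fold higher in the double knockdown [1.36 to 3.59], whereas GOT1 was within 1.06-fold of shControl in each knockdown library. The sources used here do not give strand use in counting, so reads of the overlapping bases of this pair cannot be told apart. These genes were chosen after their values were seen.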
